A study of Mus musculus with 6 samples.

Results

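The 10 genes of the YAP and TEAD pathway described here, Yap1, Wwtr1, Tead1, Tead4, Lats2, Ctgf, Cyr61, Ankrd1, Amotl2 and Axl, were taken by symbol from a table of 24028 genes, and all 10 were found. They were followed in C2C12 cells, an immortalised line of mouse myoblasts, carrying MMH6, a codon-altered and doxycycline-inducible transgene. Its product, MMH, is a chimera with the homeodomains of mouse Dux at its amino terminus and human DUX4 sequence after the homeodomains. Polyadenylated RNA was sequenced from 3 cultures with 2 µg/ml doxycycline (induced) and from 3 parallel cultures without it (uninduced). All 6 cultures came from 1 clone of transgenic cells kept in puromycin, so the uninduced cells carry the transgene too. Induction lasted 18 h by the series description and 36 h by the sample protocol. Cells with doxycycline and no transgene were not analysed here, so drug and transgene cannot be told apart.

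YAP (Yap1) and TAZ (Wwtr1) are transcriptional coactivators without a DNA-binding domain that act through the TEAD factors. The Hippo kinases, with the MST kinases acting on LATS1 and LATS2, phosphorylate YAP and TAZ and hold them in the cytoplasm or mark them for degradation. Ctgf, Cyr61, Ankrd1, Axl, Amotl2 and Lats2 are widely used target genes, and the last pair feed back on the pathway as inhibitors. In myoblasts YAP favours proliferation over differentiation, TEAD sites known as MCAT elements lie in many muscle promoters, and TEAD4 is needed in the mouse embryo to form trophectoderm.

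The TEAD core site, GGAATG or its reverse complement CATTCC, is shown in capitals because it is the feature that the listed factors are known to bind. RefSeq promoter windows (build GRCm38.p6) were matched for 7 of the 10 genes, leaving Tead1, Tead4 and Ctgf without a sequence here. In the 250 bases before the start, 6 of these 7 genes held the core on either strand, Lats2 being the exception. The same letters stood in the windows of 14.4% of 27025 genes. The complete windows are given for Cyr61 and Axl, a target that was not called and the target with the lowest fold change, followed by 30-base stretches around the other matches, all written 5′ to 3′ on the gene's strand. The starts are those of RefSeq, which for some genes differ from the GENCODE gene positions given with the values, so that the Ankrd1 and Amotl2 stretches lie within the GENCODE genes.
Cyr61 (chr3:145649986-145650235, - strand): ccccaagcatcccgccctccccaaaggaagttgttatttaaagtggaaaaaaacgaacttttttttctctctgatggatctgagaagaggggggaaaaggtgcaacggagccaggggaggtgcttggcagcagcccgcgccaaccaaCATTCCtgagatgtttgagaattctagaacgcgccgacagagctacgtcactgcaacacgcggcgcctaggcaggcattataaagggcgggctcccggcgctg
Axl (chr7:25788734-25788983, - strand): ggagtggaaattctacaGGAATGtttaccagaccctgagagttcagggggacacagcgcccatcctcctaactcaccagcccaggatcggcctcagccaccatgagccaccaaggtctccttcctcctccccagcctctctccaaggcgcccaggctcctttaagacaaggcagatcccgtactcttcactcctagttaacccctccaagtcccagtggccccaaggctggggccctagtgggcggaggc
Ankrd1 (chr19:36120037-36120066, - strand, 210 bases before the start): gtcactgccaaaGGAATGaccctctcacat
Ankrd1 (chr19:36119950-36119979, - strand, 123 bases before the start): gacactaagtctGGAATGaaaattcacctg
Amotl2 (chr9:102717727-102717756, + strand, 65 bases before the start): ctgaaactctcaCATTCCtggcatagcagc
Yap1 (chr9:8004720-8004749, - strand, 141 bases before the start): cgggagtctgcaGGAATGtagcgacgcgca
Wwtr1 (chr3:57576029-57576058, - strand, 136 bases before the start): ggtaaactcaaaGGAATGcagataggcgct
No window of these 7 genes held the AP-1 letters TGANTCA, a CArG box, or the published consensus of human DUX4, searched on both strands. Windows with these patterns belonged to 7.82%, 1.62% and 0.122% of all genes in the order named. At a share of 0.122%, the lack of a DUX4 consensus in 7 genes tells little. MMH carries the homeodomains of mouse Dux, so the human consensus need not be its site, and no mouse Dux pattern was searched. A match is a run of letters and not a measured binding site.

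The libraries held 21.5 to 24.5 M counts, with 23.5 ± 1.72 M in induced and 22.6 ± 1.17 M in uninduced cultures (SD, n = 3 each). In induced libraries 17.6 to 18.05% of all counts lay in the 5 Zscan4 genes, against 0.130 to 0.136% in uninduced libraries. The scaling between groups matters for every direction given, and the part of these 5 genes in the difference between scalings was not tested. Levels are given as CPM, counts relative to a library size multiplied by its TMM factor. These factors averaged 0.716 in induced and 1.40 in uninduced libraries. On that scale the median log2 fold change of all 12969 tested genes was -0.01, and it moved to -0.97 under library-size scaling and to -0.15 with upper-quartile scaling. Directions are therefore relative to the middle of the tested genes, as the sources used here record no spiked-in RNA. Fewer cells of a type and less RNA per cell cannot be told apart in these bulk samples.

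Of the 10 genes 6 fell, 2 rose and 2 were not called by edgeR's quasi-likelihood test at a Benjamini-Hochberg adjusted p of 0.05, where 41.2% of all tested genes were lower, 41.3% higher and 82.5% called either way. All 10 had enough counts to be tested. The genes encoding TEAD1, TEAD4 and the targets Ctgf, Ankrd1 and Axl were clearly lower, whereas the genes for the coactivators YAP and TAZ were slightly higher. Under library-size scaling the log2 fold changes of Yap1 and Wwtr1 turned negative but stayed above the median of all tested genes. That scaling put all 10 genes and 76.7% of all tested genes lower. The median log2 fold change of the 10 genes was -0.48, against -0.01 over all tested genes, a gap of 0.47. A change of scaling shifts all genes by nearly the same amount, so this gap is kept under the other scalings by construction. Without a count filter, which changes the genes tested, the members' median minus that of all tested genes was -0.65. For 8 of the 10 every induced library lay on the same side of every uninduced library, and this held for 83.1% of all tested genes. A fall of at least 2-fold was called for 3 of the 10, against 12.7% of all tested genes.

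**Figure D1:**
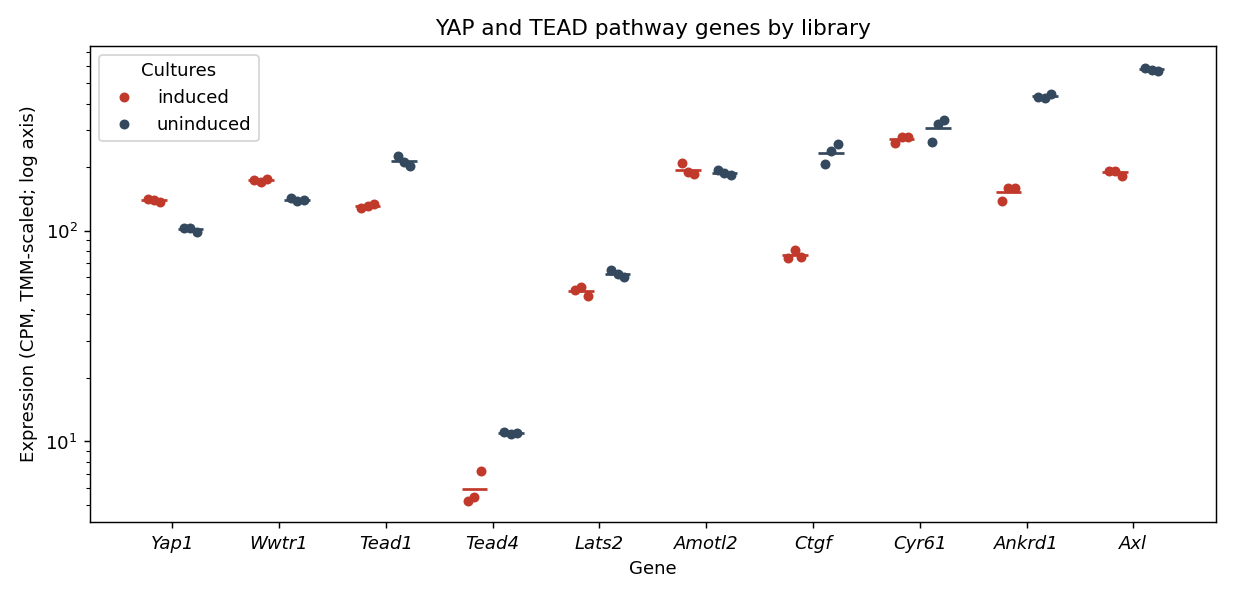
Expression in CPM (TMM-scaled, log axis) of the 10 genes in each induced (red, left) and uninduced (dark, right) library; points are libraries and bars are means of 3. Axl, Ankrd1, Ctgf, Tead1 and Tead4 sit lower in every induced library than in any uninduced library, while Amotl2 and Cyr61 overlap.

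Yap1, on chromosome 9 at 7931999 to 8004596 of GRCm38, encodes the coactivator YAP. It had 141, 139.8 and 136 CPM in induced libraries and 103, 103 and 98.2 CPM in uninduced libraries. All 3 induced libraries were above all 3 uninduced libraries, and the replicates of each group lay close together. The log2 fold change was 0.45 ± 0.04 (SE; adjusted p = 6.2e-10, edgeR), a 1.37-fold higher level, but it was -0.51 under library-size scaling. Wwtr1, on chromosome 3 at 57455649 to 57575910, encodes TAZ, the paralog of YAP. Its levels were 173, 170.5 and 175 CPM with doxycycline, against 143, 138 and 139.7 CPM without it. The groups were again separate, by 1.23-fold, with a log2 fold change of 0.30 ± 0.04 (SE; adjusted p = 3.17e-07, edgeR) that became -0.66 under library-size scaling. Relative to the other tested genes both coactivators stood somewhat above the middle, since 68.7% of them had a lower log2 fold change than Yap1 and 63.4% a lower value than Wwtr1. Exons of Yap1 share 116 bases with Gm20416, a gene on the opposite strand that has no row in the count table, and the strand of the counts is not given.

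The TEAD factors bring YAP and TAZ to DNA through their TEA domain. Tead1, on chromosome 7 at 112679318 to 112906807, had 128, 131 and 134 CPM in induced cultures and 225, 211 and 202 CPM in uninduced cultures. Every induced library was below every uninduced library. Tead1 fell by 0.70 ± 0.04 on the log2 scale (SE; adjusted p = 5.62e-13, edgeR), a 1.62-fold lower level. Tead4, on chromosome 6 at 128224288 to 128300823, is the TEAD gene that MyoD is known to activate in C2C12 cells. It was the least abundant of the 10 genes, with 92, 84 and 126 counts in induced libraries and 369, 334 and 335 counts in uninduced libraries. These correspond to 5.24, 5.44 and 7.23 CPM in induced and 11.04, 10.8 and 10.98 CPM in uninduced libraries. The groups did not overlap, although induced replicate 3 stood above the other two. Tead4 fell by 0.87 ± 0.11 on the log2 scale (SE; adjusted p = 2.17e-07, edgeR), and the value ran from -1.03 to -0.78 with each library left out in turn.

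The other TEAD genes behaved alike in direction. Log2 fold changes were -0.51 ± 0.06 for Tead2 and -0.60 ± 0.08 for Tead3. All 4 TEAD genes were thus called lower, as were 41.2% of all tested genes. Counts per kilobase of exon, taken as shares of the 4 genes' total within a library, gave Tead1 40.9% ± 1.70 in induced and 42.9% ± 0.569 in uninduced libraries (SD, n = 3 each). Tead2 made 41.4% ± 1.73 in induced and 38.3% ± 0.0577 in uninduced libraries. The Tead4 share was 7.03% ± 1.32 in induced and 8.34% ± 0.336 in uninduced libraries, with overlapping ranges. These shares do not depend on the scaling between libraries. Of 6 markers of the myoblast state, 5 were tested and all 5 fell, beside the same 41.2% of all tested genes. Their log2 fold changes ran from -2.28 to -0.60. Pax7 had too few counts to be tested, with 3, 4 and 4 in induced and 1, 0 and 2 in uninduced libraries. The summed level of all 6 markers was 850.0 to 879.9 CPM in induced and 1695 to 1706 CPM in uninduced libraries. Myod1, which directs cells to the muscle lineage, had 37.1 ± 0.896 CPM in induced and 178 ± 4.08 CPM in uninduced cultures (SD, n = 3 each). The part of this marker change in the TEAD values was not tested.

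Lats2 and Amotl2 are targets that also restrain YAP. Lats2, on chromosome 14 at 57689662 to 57758388, encodes a kinase that phosphorylates YAP and TAZ. It had 52.5, 54.2 and 49.2 CPM in induced libraries, against 65.0, 62.1 and 60.3 CPM in uninduced libraries. The groups were separate by a narrow margin, and Lats2 fell by 0.27 ± 0.05 on the log2 scale (SE; adjusted p = 6.72e-05, edgeR), a 1.20-fold lower level. Lats2 shares 2955 exon bases with Gm49361 on the same strand, which has no row in the table, so reads from that transcript may be counted here. Amotl2, on chromosome 9 at 102716672 to 102733418, encodes an angiomotin that binds and retains YAP. Its levels of 209, 189 and 185 CPM in induced and 194, 187 and 183 CPM in uninduced libraries overlapped. The log2 fold change of 0.05 ± 0.05 (SE; adjusted p = 0.32, edgeR) was not called, and its sign turned with upper-quartile scaling (-0.10), without a count filter (-0.02) and under library-size scaling (-0.91).

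Among the downstream targets, Axl, Ctgf and Ankrd1 showed the 3 lowest log2 fold changes of the 10 genes under the main scaling. Axl, on chromosome 7 at 25757273 to 25788705, encodes a receptor tyrosine kinase of the TAM group, and its promoter window is printed above. It had 192, 192 and 182 CPM in induced libraries and 592, 580.1 and 570.1 CPM in uninduced libraries. The highest induced library was far below the lowest uninduced library, and Axl fell by 1.62 ± 0.04 on the log2 scale (SE; adjusted p = 5.41e-21, edgeR), a 3.08-fold lower level. Ctgf, on chromosome 10 at 24595442 to 24598683, encodes connective tissue growth factor, a secreted matricellular protein. It had 74.0, 81.2 and 74.6 CPM in induced cultures, against 207, 237 and 256 CPM in uninduced cultures. Ctgf was uniformly low with doxycycline and more variable without it, and it fell by 1.61 ± 0.07 on the log2 scale (SE; adjusted p = 4.34e-12, edgeR). Its exons share 665 bases with the opposite-strand gene Gm15270, which has no row in the table.

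Ankrd1, on chromosome 19 at 36111961 to 36120099, encodes a nuclear and sarcomeric ankyrin-repeat protein of muscle, and its window was the only one of the 7 with 2 TEAD cores. It had 139, 159 and 159 CPM in induced libraries and 428, 425 and 445 CPM in uninduced libraries. No induced library came near an uninduced library, and Ankrd1 fell by 1.51 ± 0.05 on the log2 scale (SE; adjusted p = 1.81e-18, edgeR), a 2.84-fold lower level. Of all tested genes, 4.12% had a lower log2 fold change than Axl, 4.23% a lower value than Ctgf and 5.12% a lower value than Ankrd1.

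Cyr61, on chromosome 3 at 145646976 to 145649981, encodes a matricellular protein of the same family as Ctgf. Its 259, 277 and 277 CPM in induced libraries overlapped the 263, 322 and 336 CPM of uninduced libraries. The overlap came from uninduced replicate 1, which was also the lowest uninduced library for Ctgf. The log2 fold change was -0.18 ± 0.08 (SE; adjusted p = 0.0689, edgeR) and was not called. It was -0.28 without uninduced replicate 1 (adjusted p = 4.57e-07, edgeR), and it passed the threshold also in DESeq2 (adjusted p = 0.0308) and in limma-voom (adjusted p = 0.0247). In edgeR it passed with upper-quartile scaling (adjusted p = 0.00766), without a count filter (adjusted p = 5.63e-08) and with robust=FALSE (adjusted p = 0.0146), but not with RLE scaling (adjusted p = 0.105). The estimate stayed negative under every alternative run, between -1.14 under library-size scaling and -0.11 with a library left out.

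**Figure D2:**
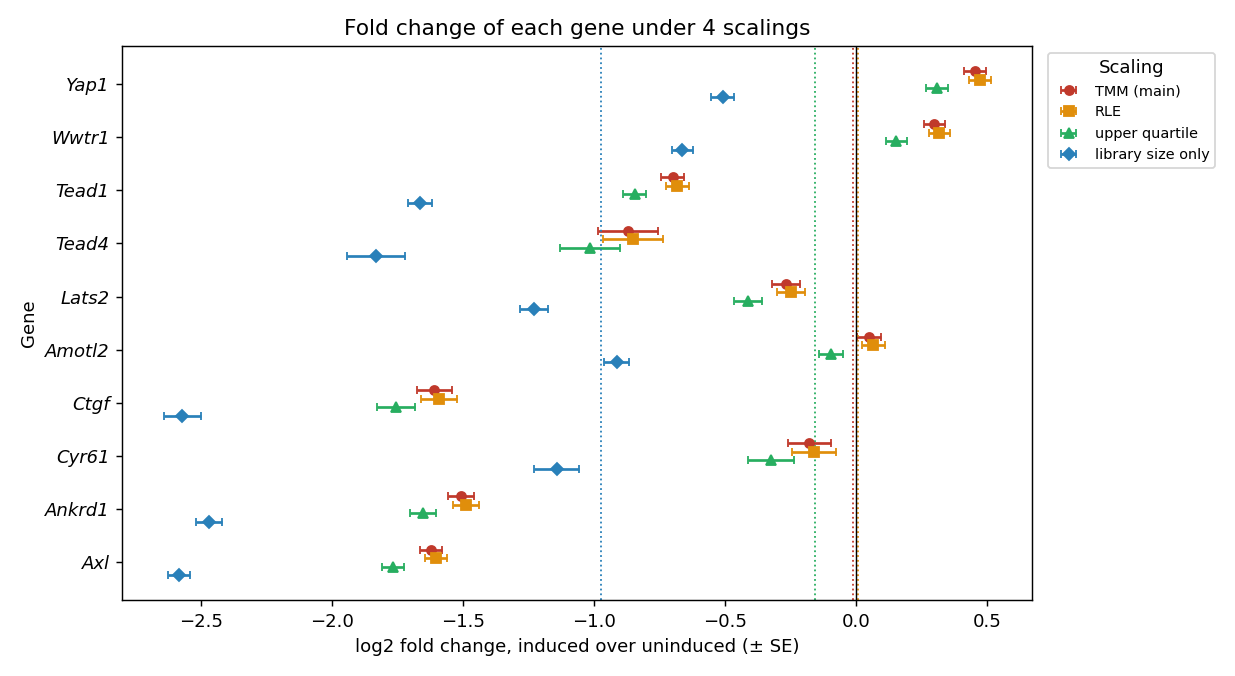
The log2 fold change of induced over uninduced cultures (± SE) for each gene under TMM, RLE, upper-quartile and library-size scaling; dotted lines mark the median of all tested genes under the scaling of the same colour. Yap1 and Wwtr1 lie above 0 and above the median line for TMM, RLE and upper-quartile scaling, and under library-size scaling they lie below 0 but above the median of -0.97.

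Compared per kilobase of exon, the 10 genes spanned a wide range of levels. In induced libraries Cyr61 had the highest level, 134 ± 4.90 CPM per kb, followed by Ankrd1 with 52.7 ± 4.09, Axl with 37.5 ± 1.15 and Wwtr1 with 36.1 ± 0.450 CPM per kb (SD, n = 3 each). Amotl2 (30.9 CPM per kb), Ctgf (26.8), Yap1 (15.0), Tead1 (9.65), Lats2 (7.45) and Tead4 (1.66) followed. In uninduced libraries Cyr61 stood at 152 ± 19.2, Ankrd1 at 150.0 ± 3.57, Axl at 115 ± 2.22 and Ctgf at 81.6 ± 8.56 CPM per kb. Below them came Amotl2 (29.8 CPM per kb), Wwtr1 (29.4), Tead1 (15.7), Yap1 (10.95), Lats2 (8.96) and Tead4 (3.04). Axl and Wwtr1 could not be separated by their ranges in induced libraries, nor Cyr61 from Ankrd1 or Amotl2 from Wwtr1 in uninduced libraries. Yap1 thus stood above Tead1 in all 3 induced libraries and below it in all 3 uninduced libraries. Replicates of Cyr61 varied by 3.65% in induced and 12.6% in uninduced libraries (SD as a percent of the mean CPM), and those of Tead4 by 18.4% in induced and 1.13% in uninduced libraries. The median over tested genes with at least 1 CPM was 5.48% in induced and 4.84% in uninduced libraries. Exon lengths are the union of all annotated exons in GENCODE M21 and can exceed the transcripts made in these cells.

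Ratios between related genes were formed within each library, where the scaling between libraries cancels. Cyr61 had 3.51, 3.41 and 3.71 counts for each Ctgf count in induced libraries, against 1.27, 1.36 and 1.31 in uninduced libraries. Both genes belong to the CCN family, and the ratio was 2.70-fold higher with doxycycline, with a difference in mean log2 ratio of 1.43 (exact permutation test, two-sided, p = 0.1, adjusted p = 0.12). The kinases STK4 and STK3, also known as MST1 and MST2, moved apart as well, with Stk4 to Stk3 count ratios of 2.33, 2.22 and 2.27 in induced and 1.17, 1.13 and 1.05 in uninduced libraries. Amotl2 gained on its paralog Amotl1, with ratios of 3.32, 3.04 and 3.26 in induced and 1.80, 1.96 and 2.06 in uninduced libraries. The ratio of Yap1 to Wwtr1 was 0.814, 0.820 and 0.780 in induced and 0.718, 0.747 and 0.703 in uninduced libraries, a small but non-overlapping shift of 0.16 on the log2 scale. Lats2 to Lats1 differed by -0.19, with the induced libraries spread from 0.662 to 0.834 and the uninduced from 0.867 to 0.890, and the difference shrank to -0.09 without induced replicate 3. For Tead4 to Tead1 the ratios overlapped (difference -0.19, or -0.32 without induced replicate 3; exact permutation test, two-sided, p = 0.3). The smallest p that this exact permutation test of 3 against 3 libraries allows is 0.1, which each pair other than Tead4/Tead1 reached, so none of the 6 pairs could pass 0.05.

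**Figure D3:**
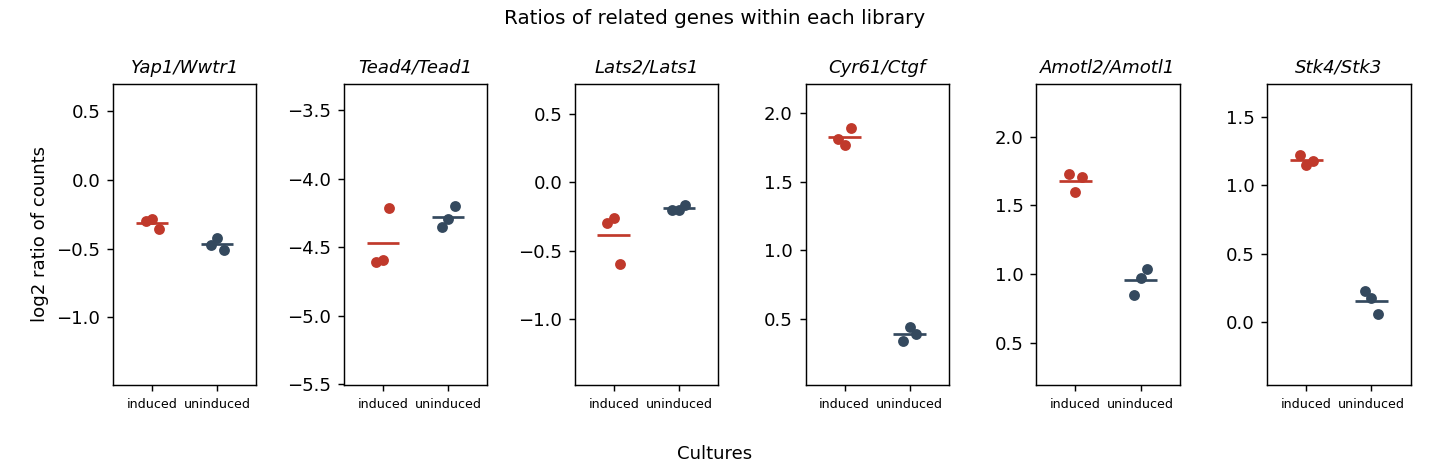
The log2 ratio of counts of related genes in each induced (left) and uninduced (right) library, with a bar at each mean of 3; every panel spans 2.2 log2 units. Cyr61/Ctgf and Stk4/Stk3 show wide gaps of 1.43 and 1.03 between groups, and Tead4/Tead1 overlaps.

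The rest of the pathway was described with 9 further lists, together 104 genes in the table beside the 10. Of the 94 tested, 42 fell, 31 rose and 21 were not called, with a median log2 fold change of -0.08, close to the -0.01 of all tested genes and near the background shares. With upper-quartile scaling 52 were lower and 26 higher, and with library-size scaling 84 were lower and 6 higher. The counts of each list below stand beside 41.2% lower and 41.3% higher among all tested genes. Under library-size scaling 76.7% of all tested genes were lower.

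A conserved signature of 22 YAP and TAZ targets, of which 6 are among the 10 genes, was all tested. In it 15 genes fell and 5 rose, where 41.2% of all tested genes were lower and 41.3% higher. Amotl2 and Cyr61 were not called, and the median log2 fold change of the signature was -0.67. Its 16 genes outside the 10 counted 11 lower and 5 higher, also with a median of -0.67. Under library-size scaling the signature had 19 lower and 1 higher, where 76.7% of all tested genes were lower. Igfbp3, among the 5 that rose, and Nt5e, among the 15 that fell, reached the count filter in the libraries of a single group only, so that each was tested only through the group where it was high. The lowest log2 fold changes by the rule for naming were -1.72 ± 0.07 for Dock5, which encodes an exchange factor for Rac, -1.47 ± 0.09 for the RNA-binding protein gene Rbms3 and -1.44 ± 0.06 for the matrix protein gene Ccdc80. Igfbp3, which encodes a binding protein for insulin-like growth factors, had 126, 131 and 118 counts in induced libraries and 5, 7 and 9 counts in uninduced libraries. Foxf2 and Crim1 rose by 0.86 ± 0.09 and 0.83 ± 0.06, but both were slightly negative under library-size scaling. In the CCN family 3 of 5 tested genes fell, 1 rose and Cyr61 was not called, and Wisp2 passed the count filter through uninduced libraries only. Its genes moved far apart: Wisp1 fell by 1.67 ± 0.05 on the log2 scale, while Nov had 122 ± 3.86 CPM in induced and 8.40 ± 1.08 CPM in uninduced cells (SD, n = 3 each), a 14.5-fold higher level. Of the TAM receptors and ligands, Axl fell and Pros1, which encodes the ligand protein S, was at 0.33 ± 0.07 (-0.63 under library-size scaling). The sister receptors Tyro3 and Mertk, named after their values were seen, were not called at -0.18 ± 0.09 and 0.21 ± 0.10, but both lay near the threshold (adjusted p = 0.0614 for Tyro3 and 0.0573 for Mertk, edgeR). Mertk was called higher with RLE scaling, the 1 CPM filter or the replicate block and without uninduced replicate 2 or induced replicate 1, and called lower under library-size scaling (-0.75). Tyro3 was called lower with upper-quartile or library-size scaling and without a count filter. The ligand gene Gas6 had too few counts to be tested.

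In the Hippo kinase module 10 of 16 tested genes fell, 2 rose and 4 were not called (median -0.22), and under library-size scaling all 16 were lower. Log2 fold changes were -0.86 ± 0.06 for Sav1, the scaffold of the MST kinases, -0.72 ± 0.06 for Stk3 and -0.69 ± 0.09 for Map4k2. The LATS cofactor gene Mob1b and the kinase gene Stk4 rose by 0.48 ± 0.07 and 0.31 ± 0.06, both of them negative under library-size scaling. Mob1a, the paralog of Mob1b, was called lower at -0.63 ± 0.07 and was named after its value was seen. Lats1 was at -0.07 ± 0.06 and not called. Among upstream scaffolds and polarity genes 12 of 23 fell, 6 rose and 5 were not called (median -0.13), against 20 lower with library-size scaling. Wwc1, among those that fell, passed the count filter through uninduced libraries only. The YAP-binding phosphatase gene Ptpn14 was at -1.29 ± 0.06, the polarity gene Pard3 at -1.15 ± 0.08, Nf2, which encodes the tumour suppressor Merlin, at -1.14 ± 0.06 and Amotl1 at -0.68 ± 0.06 on the log2 scale. Fat1, an atypical cadherin gene, rose with a value of 0.92 ± 0.06 and Fjx1 with 0.80 ± 0.15, both negative under library-size scaling.

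The STRIPAK phosphatase complex, which dephosphorylates MST kinases, had 6 genes higher, 4 lower and 4 not called of 14 tested (median 0.07), a balance that turned to 1 higher and 13 lower under library-size scaling and to 2 higher and 2 lower against a 1.5-fold change. Trafd1, which was on the list although its place in the complex is not certain, rose by 1.76 ± 0.05, whereas Strn was at 0.56 ± 0.09 but below 0 under library-size scaling. The subunit gene Cttnbp2nl was misspelt on the list and so was left out of these counts. Sike1 was at -1.14 ± 0.07, Fgfr1op2 at -0.85 ± 0.06 and Strn3 at -0.59 ± 0.04. Genes of YAP and TAZ retention and turnover were higher in 8 of 13 cases, lower in 2 and not called in 3 (median 0.26), and under library-size scaling all 13 were lower. The kinase genes Csnk1d and Csnk1e, which prime YAP for degradation, were at 0.85 ± 0.04 and 0.63 ± 0.04, and the ubiquitin ligase gene Wwp1 was at 0.55 ± 0.06. The 14-3-3 genes moved in both directions. Ywhah and Ywhab were lower, at -0.88 ± 0.05 and -0.52 ± 0.04. Ywhaq and Ywhae were called higher at 0.41 ± 0.04 and 0.09 ± 0.04, and Ywhaz was not called at -0.08 ± 0.04. Ywhaq, Ywhae and Ywhaz were named after their values were seen. Of the Vgll cofactors, which compete with YAP for TEAD, Vgll2, Vgll3 and Vgll4 were not called at -0.09 ± 0.38, 0.04 ± 0.05 and -0.09 ± 0.09. Vgll1 had too few counts. These cofactors were named after their values were seen. Under library-size scaling all 3 that were tested were called lower, and with upper-quartile scaling Vgll3 and Vgll4 were called lower. In the list of TEAD factors, cofactors and coactivators 4 of 9 tested genes fell, 2 rose and 3 were not called (median -0.09).

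Trophectoderm genes linked to TEAD4 were sparse, with 5 of 9 tested. Eomes and Tfap2c passed the count filter through induced libraries only and Krt8 through uninduced libraries only, so the 3 higher, 1 lower and 1 not called are given as values only. Gata3, a transcription factor gene of the trophectoderm, had 30.1 ± 2.37 CPM in induced and 10.0 ± 0.925 CPM in uninduced cells (SD, n = 3 each), a log2 fold change of 1.59 ± 0.08. Eomes had 61, 33 and 61 counts in induced and 0, 5 and 5 counts in uninduced libraries. Dab2, an endocytic adaptor gene, fell by 0.68 ± 0.05 on the log2 scale, and Cdx2, Elf5, Krt18 and Hand1 had too few counts.

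**Figure D4:**
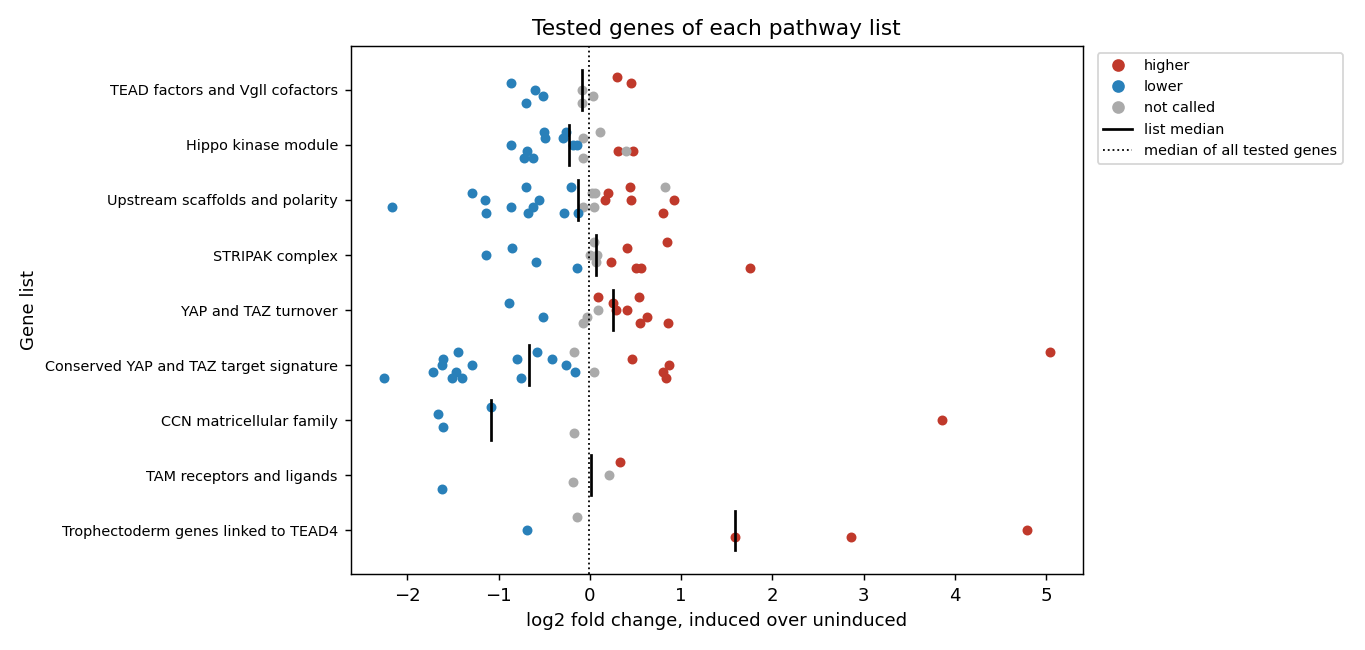
The log2 fold change of induced over uninduced cultures for every tested gene of the 9 lists, coloured by call, with the list median as a bar and the median of all tested genes as a dotted line. The target signature has its median at -0.67 and the turnover list at 0.26, while Igfbp3, Eomes and Nov stand far to the right. Igfbp3 and Eomes passed the count filter through induced libraries only, so each was tested only through the group where it was high.

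Of the markers of other cell types, Pdgfra of the fibroblast list had 49.6 CPM on average in induced and 13.1 CPM in uninduced libraries, a level near that of Lats2 in induced libraries. Fibroblast markers summed to 50.6 to 51.2 CPM in induced and 12.9 to 16.04 CPM in uninduced libraries, Pdgfra being higher and Dcn not called at -0.47 ± 0.31. Endothelial markers summed to 2.05 to 2.41 CPM in induced and 0.0647 to 0.459 CPM in uninduced libraries, where Pecam1 and Tek, the only members tested, passed the count filter through induced libraries only. Leukocyte markers summed to 7.002 to 7.92 CPM in induced and 4.46 to 6.47 CPM in uninduced libraries, and of the 2 tested Cd14 was called higher, but lower under library-size scaling (-0.51). Epithelial markers summed to 3.96 to 4.98 CPM in induced and 4.37 to 5.18 CPM in uninduced libraries, and Krt14, the only member tested, was not called. Adipocyte markers, none tested, summed to 0.0647 to 0.399 CPM in induced libraries and had no count in uninduced libraries. Lum, Kdr, Adgre1 and Epcam had no count in uninduced libraries, and Cdh1 and Krt5 none in induced libraries. The part of these markers in the pathway values was not tested.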

How the data were processed

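Polyadenylated RNA of 6 libraries was profiled, 3 induced and 3 uninduced, grouped by the titles in the labels. The submitters' processing notes name CASAVA, TopHat2 2.0.12, Bowtie2 2.2.3 and the build mm10. The deposited table holds raw counts of reads per Entrez gene; the sources used here do not name the counter, its strand setting or the annotation. The TruSeq RNA v2 kit named in the labels does not mark strand, so reads of overlapping antisense genes cannot be told apart.

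Counts were filtered with filterByExpr at its defaults, scaled with TMM and compared by edgeR 4.0.16 under R 4.3.3 (a two-sided quasi-likelihood F test from robust glmQLFit, with a term for group), and p-values were adjusted by Benjamini-Hochberg across 12969 genes. The SE is the log2 fold change over the square root of F. The procedure was tested on simulated counts, drawn for both groups from a shared mean profile with changes put into a small set of genes. It recovered 84% of changes of 0.5 on the log2 scale and called 11 of 12567 unchanged genes. That setting held no broad shift between groups, so the choice of scaling was not tested by it. The chi-square between replicates of a group was 2.40 to 6.77 times its degrees of freedom, above counting noise, and each library was counted as a sample. Exon lengths and gene positions are from GENCODE M21 (GRCm38, the assembly of mm10), and promoter windows from RefSeq.

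The members and lists were chosen with earlier results of these data known. Named were all 10 members, the genes of 6 paralog pairs, and from each list up to 3 rises and 3 falls among called genes with no overlap between groups and a mean of at least 1 CPM; some genes the rule names are not reported here. Alternatives were scaling by RLE, by upper quartile or by library size alone (library-size scaling), DESeq2 1.42.0, limma-voom (limma 3.58.1), other count filters, robust=FALSE, an adjusted p of 0.01, glmTreat against 1.5-fold, a replicate block, each library left out, and 0.5 added to counts in ratios. No set test was run.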

Additional observations from a re-analysis of the deposited data

How the results depend on the processing

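The calls of the 10 genes depended mainly on the scaling. Under library-size scaling all 10 were lower and 0 higher (edgeR quasi-likelihood test; 0 were also higher at an unadjusted p under 0.05), of the wider lists 84 were lower and 6 higher, and of all tested genes 9949 were lower and 1977 higher. That scaling moves the median of all tested genes to -0.97. Against a 1.5-fold change with glmTreat, a stricter hypothesis by construction, 5 of the 10 genes were lower and 0 higher (0 also at an unadjusted p under 0.05), where 19.4% of all tested genes were lower. Under glmTreat the wider lists had 20 lower and 11 higher, and all tested genes had 5549 calls, 2510 lower and 3039 higher. Among the named genes, the log2 fold changes that changed sign under library-size scaling were Yap1 -0.51, Wwtr1 -0.66, Amotl2 -0.91, Stk4 -0.66, Mob1b -0.49, Fat1 -0.04, Fjx1 -0.17, Strn -0.41, Csnk1d -0.11, Csnk1e -0.33, Wwp1 -0.41, Foxf2 -0.10, Crim1 -0.13, Pros1 -0.63, Mertk -0.75, Vgll3 -0.926 and the leukocyte markers Cd14 -0.51 and Cd68 -0.77. Amotl2 was also at -0.10 with upper-quartile scaling and -0.023 without a count filter, and Vgll3 at -0.107 and -0.035. With each library left out in turn, Amotl2 ranged from -0.002 to 0.087 and Cd68 from -0.027 to 0.332, Vgll2 from -0.265 to 0.133 and Vgll4 from -0.16 to 0.006, none of them called in the main test. With the replicate number as a block, 7 of the 10 genes were lower and 2 higher, Cyr61 being the addition (edgeR adjusted p = 0.000247). Deviations of same-numbered libraries correlated weakly, at 0.0166 to 0.0604, but each library correlated best with its own number. No threshold for pairing was set, so whether the numbers mark pairs is not known, and the main test used no block. DESeq2, limma-voom, robust=FALSE, upper-quartile scaling and the run without a count filter also gave 7 lower and 2 higher. Leaving out libraries gave 6 or 7 lower and 2 higher. Counts of about 84 to 126 per induced library limit the precision of Tead4.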
